A study of Homo sapiens with 2 samples.

Results

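The genes of MHC class I antigen presentation were described in RNA sequencing libraries of 468 breast cancer cells, an established epithelioid line that the labels name only as 468. Of 13017 genes listed for both libraries, 9 were taken by symbol: the heavy chain genes HLA-B, HLA-C, HLA-E and HLA-F, the light chain gene B2M, the transporter genes TAP1 and TAP2, the tapasin gene TAPBP and the peptidase gene ERAP1. They were chosen by name from a class I list whose ratios in these libraries were already known, so their levels and ratios are a description and carry no test. One library came from cells transfected with a Smart Silencer, a mixture of silencing oligonucleotides, against the antisense RNA THAP7-AS1 (THAP7-AS1 knockdown), and the other from cells given the negative control (si-NC control). Both were collected after 48 h and grown in L15 medium with serum, and since the silencer is entered as the treatment of each sample, the groups rest on the genotype label. With 1 library per group, no value below has a replicate error.

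MHC class I molecules show peptides from inside the cell to cytotoxic T cells and natural killer cells. A heavy chain pairs with beta-2 microglobulin in the endoplasmic reticulum (ER), where TAP1 and TAP2 pump in peptides cut by the proteasome, tapasin holds the empty molecule to the transporter, and ERAP1 trims peptides to length. On chromosome 6 lie the HLA genes, TAP1, TAP2 and TAPBP, on chromosome 15 B2M and on chromosome 5 ERAP1. Most of these genes are known to be induced by interferon, and tumour cells often lower some of them.

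Levels are given in FPKM, fragments per kilobase of transcript scaled to the library total, so genes of different length can be set side by side within a library. The knockdown library is given first throughout. The FPKM values summed to 213442 and 213888, at an estimated 11100000 and 10900000 fragments. Both estimates are rough and were held within bounds by the range of values they were taken from, so their near equality is not a result. THAP7-AS1 itself is not analysed here. THAP7, which overlaps it on the opposite strand, was at 8.38 and 2.71 FPKM, and without strand its reads cannot be told apart from those of the antisense RNA.

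The heavy chain genes covered a wide range of levels. HLA-E, a non-classical heavy chain that presents leader peptides of other class I molecules to receptors of natural killer cells, was the most abundant member, at 179.6 FPKM in the knockdown and 173.5 in the control library. HLA-C, a classical heavy chain and a ligand of killer-cell immunoglobulin-like receptors, was at 74.7 and 80.4 FPKM. HLA-B, the classical heavy chain gene with the most known alleles, was at 49.0 and 60.7 FPKM. HLA-B was the heavy chain gene with the lowest ratio of knockdown over control, and HLA-E the one with the highest. In bulk RNA, fewer cells that express a gene and less RNA per cell cannot be told apart. HLA-F, a non-classical gene with little surface protein in most cells, was at 4.32 and 5.01 FPKM and was the least abundant of the 9 genes.

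**Figure D1:**
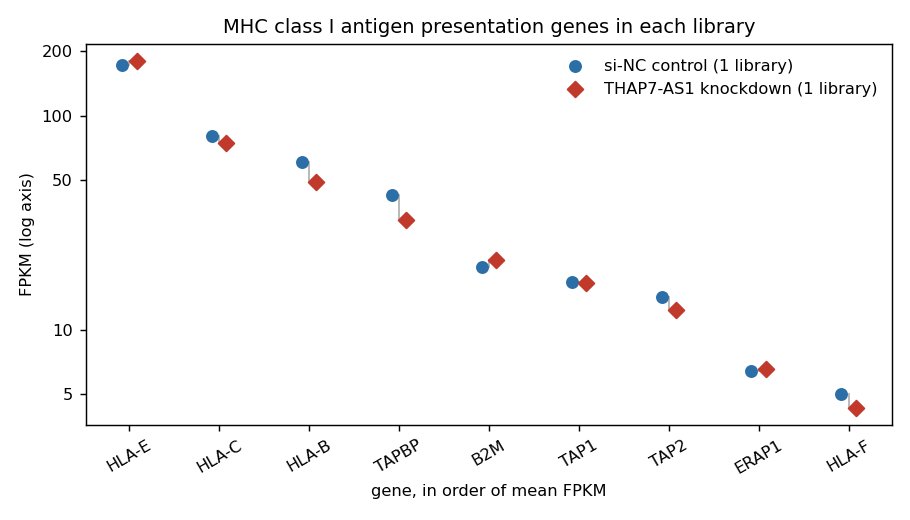
FPKM on a log axis for the 9 genes, in order of mean FPKM, with a circle for the si-NC control library and a diamond for the THAP7-AS1 knockdown library (1 library each, no error bars). The order is the same in both libraries, from HLA-E at 179.6 and 173.5 FPKM down to HLA-F at 4.32 and 5.01, and the widest gaps between symbols are those of TAPBP and HLA-B.

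Within a library, shares do not depend on how the libraries were scaled against each other. The 4 heavy chain genes summed to 307.7 FPKM in the knockdown and 319.6 in the control library. HLA-E held 58.4% and 54.3% of these sums, HLA-C 24.3% and 25.2%, HLA-B 15.9% and 19.0%, and HLA-F 1.40% and 1.57%. HLA-E was thus 3.66 times HLA-B in the knockdown and 2.86 times in the control library. These sums cover the 4 named genes only.

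**Figure D2:**
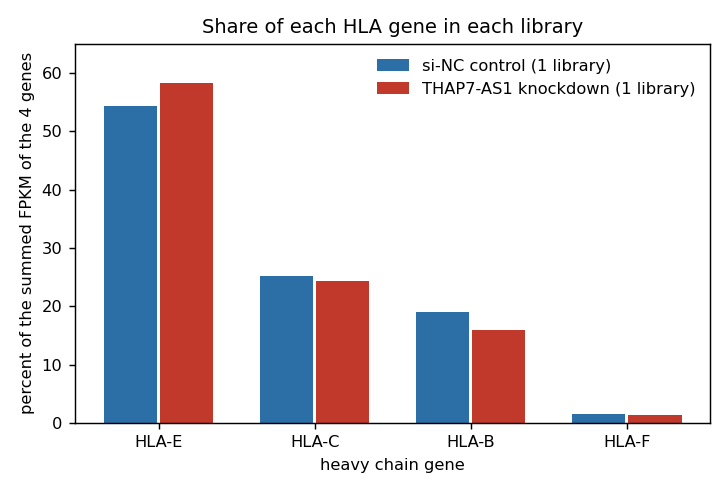
Share of each heavy chain gene in the summed FPKM of HLA-B, HLA-C, HLA-E and HLA-F, in percent, with 1 bar per library (1 library each, no error bars). HLA-E held 58.4% in the knockdown and 54.3% in the control library, and HLA-B 15.9% and 19.0%.

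The promoters of HLA-B and HLA-C were much alike. Over the 250 bases before the annotated start, 226 of 246 aligned bases were identical, or 91.9%, against 83.7% between HLA-B and HLA-F. The stretch that holds the best-known element of this promoter, a kappaB site, is shown for both genes because the 2 genes are compared below and their promoters are near copies. Sequences are from RefSeq promoter windows on GRCh38.p14, minus strand, written 5′ to 3′, at chr6:31357330-31357359 for HLA-B and chr6:31272239-31272268 for HLA-C, and capitals mark matches to GGG, any 5 bases and CC on either strand, which overlap in HLA-B.
HLA-B: gttGGGGATTCCCCactcccctgagtttca
HLA-C: gttgGGGATTCTCCactcccctgagtttca
The stretches differ at 1 of 30 bases, C12T, counted from 1 at the 5′ end of the stretch with the HLA-B base first. They begin 180 bases before the start of HLA-B and 176 before that of HLA-C. All 30 bases shown for HLA-B lie in an exon annotated in GENCODE 29, and none of those for HLA-C. They are reference sequence and not that of the 468 line. Of all genes with such a window, 61.7% hold these letters, so a match is common.

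B2M encodes beta-2 microglobulin, the light chain that every class I heavy chain needs to reach the cell surface. It was at 21.1 FPKM in the knockdown and 19.7 in the control library, the fifth of the 9 genes in both. This placed it at percentile 85.1 and 83.9 of all listed genes, whereas HLA-E was at percentile 99.2 in each. The 4 heavy chain genes together were 14.6 and 16.2 times as high as B2M. None of the words of 50 bases in the annotated coding transcripts of B2M occurred in another annotated gene. The cause of the low level of B2M beside the heavy chain genes was not tested. TAP1 came next in both libraries, and with 1 library each it cannot be said which neighbours in the order differ beyond their spread.

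The region before B2M is shown because it carries in 110 bases the elements known from class I promoters. It lies at chr15:44711367-44711476 (GRCh38.p14, plus strand), from 150 to 41 bases before the annotated start, and holds no annotated exon. Capitals mark, in order, overlapping matches to the interferon-stimulated response element core (GAAA, any 2 bases, GAAA), the kappaB letters on both strands, the CRE core TGACG and CCAAT on the other strand (ATTGG).
B2M: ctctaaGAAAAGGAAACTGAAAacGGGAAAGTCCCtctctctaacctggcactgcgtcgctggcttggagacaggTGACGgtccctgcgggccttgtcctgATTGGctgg
The same CRE core was found before HLA-B, HLA-C and TAP2 among the 8 members with a RefSeq window, against 28.4% of all genes with a window. CCAAT on either strand was found in 6 of the 8, against 39.7% of genes. GGGCGG, the GC box, was found in 4 of the 8, against 48.3%.

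TAP1 and TAP2 encode the subunits of the peptide transporter. TAP1 was at 16.6 FPKM in the knockdown and 16.8 in the control library, nearly the same level in each. TAP2 was at 12.3 and 14.2 FPKM, below TAP1 in both. The ratio of TAP2 to TAP1 was 0.742 in the knockdown and 0.848 in the control library. TAPBP, which encodes tapasin, the bridge between the transporter and the empty class I molecule, was at 32.5 and 42.4 FPKM. It had the lowest ratio of the 9 genes. TAPBP was 1.12 times the sum of TAP1 and TAP2 in the knockdown and 1.37 times in the control library. ERAP1, the aminopeptidase of the endoplasmic reticulum, was at 6.57 and 6.42 FPKM.

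Most members with a RefSeq window hold the interferon-stimulated response element core. Most class I genes are known to be induced by interferon, so this feature is not independent of how the members were chosen. The response element core, GAAA, any 2 bases and GAAA on either strand, lay in the RefSeq window of 6 of the 8 members that have one (HLA-F, B2M, TAP1, TAP2, TAPBP and ERAP1), against 4.38% of 27305 genes with windows of the same 300 bases, which run from 250 before the start to 50 after. Genes with several annotated starts have several windows, and 3.57% of the 35116 windows hold the letters. Short stretches around the matches are shown for the loading genes and HLA-F, with the matches in capitals, and where the capitals begin with TTTC the match is on the other strand.
TAP1: gcggccgcTTTCGATTTCGCTTTCccctaa
TAP2: tggggaagcGAAAGCGAAAgctgcccga
TAPBP: tttggagGAAAGTGAAAGTGAAAggag
HLA-F: ccccagagTTTCTCTTTCtctcccaacc
They lie at chr6:32853817-32853846 (minus strand), chr6:32838779-32838806 (minus), chr6:33314079-33314105 (minus) and chr6:29723270-29723297 (plus) on GRCh38.p14. All bases of these 4 stretches also lie in exons annotated in GENCODE 29. In TAP1, TAPBP and B2M 2 matches overlap, and in ERAP1 the match lies just after the start. HLA-B and HLA-C have no match to these letters in their windows, which says nothing of the factors that bind there. A match is a description and not a shown binding site.

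The ratio of each gene was taken as log2((knockdown FPKM + 1)/(control FPKM + 1)), and the 10925 genes whose mean reached 1 FPKM were kept, all 9 members among them. Every fold is on this scale, which understates the change of low genes. The log2 ratio was -0.38 for TAPBP, a 1.30-fold lower value in the knockdown library. It was -0.30 for HLA-B, a 1.23-fold lower value. TAP2 followed at -0.19, HLA-F at -0.18 and HLA-C at -0.10. TAP1 was at -0.015, ERAP1 at 0.028, HLA-E at 0.05 and B2M at 0.10. The 6 values below 0 thus belonged to tapasin, both transporter subunits and 3 of the 4 heavy chain genes, and the 3 above 0 to ERAP1, HLA-E and the light chain. The sign of HLA-E changed to -0.024 under quantile normalization.

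**Figure D3:**
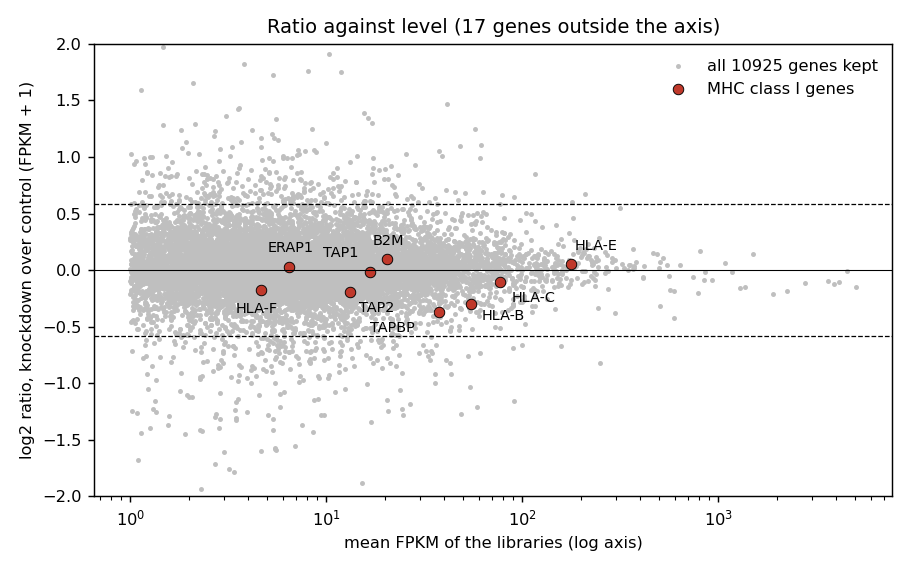
Log2 ratio of knockdown over control on the FPKM + 1 scale against the mean FPKM of the libraries on a log axis, for 10925 genes (grey) and the 9 MHC class I genes (red), with dashed lines at 1.5-fold. All 9 genes lie between the dashed lines, from -0.38 for TAPBP to 0.10 for B2M, and 17 grey points lie outside the axis.

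A difference of 1.5-fold stood in for a test. None of the 9 members was at least 1.5-fold lower in the knockdown library, where 2.46% of all genes kept were, and none was at least 1.5-fold higher, where 2.98% were. At a smaller log2 ratio of 0.32 in size, TAPBP alone was lower, against 7.89% of all genes, and no member was higher, against 10.7%. The median log2 ratio of the members was -0.10, with 6 below 0 and 3 above, beside 0.02 over all genes kept, of which 46.9% were below 0. Without the HLA genes the median of the other 5 was -0.015. Since the members were chosen with these ratios known, nothing is read from these counts.

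Single members were also set beside genes of their own level. Among the 500 genes nearest in mean FPKM, 27 had a ratio as low as that of TAPBP or lower, and 34 as low as that of HLA-B. The spread of the ratio over those neighbours (SD from the median absolute deviation) was 0.18 for TAPBP and 0.17 for HLA-B. For TAP2 it was 0.22 with 85 genes as low, and for HLA-F 0.25 with 102 genes. The ratio of B2M was above that of most neighbours but within 1 spread of 0.19. This spread is over genes in 2 libraries and is not an error between cultures.

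The depth gives a further scale. Reckoned from the median length of annotated coding transcripts, TAPBP had about 538 fragments in the knockdown and 691 in the control library, and the counting error of its log2 ratio (1 standard error, without the added 1) was 0.083. For HLA-B the fragments were about 470 and 572 and the error 0.090. HLA-E, with about 5188 and 4929 fragments, had an error of 0.029, while HLA-F had 0.25 and ERAP1 0.31. On these lengths the differences of HLA-F and ERAP1 were within their counting error. For B2M the error was 0.14 and for TAP1 0.10, so on these lengths their differences were within it. The differences of TAPBP, HLA-B and TAP2 (error 0.071) were more than 2 times their counting error. Those of HLA-C (0.062) and HLA-E were less than 2 times. These errors depend on the length taken, and the median was 607.5 bases for ERAP1, 1012 for B2M and 1283 for HLA-F. All annotated exons of these genes cover 7945, 6079 and 4342 bases. A longer length gives more fragments and a smaller error, so the errors do not rank the members by depth alone. A difference within its counting error on these lengths may lie beyond it on a longer one. The counting error does not include the spread between cultures.

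**Figure D4:**
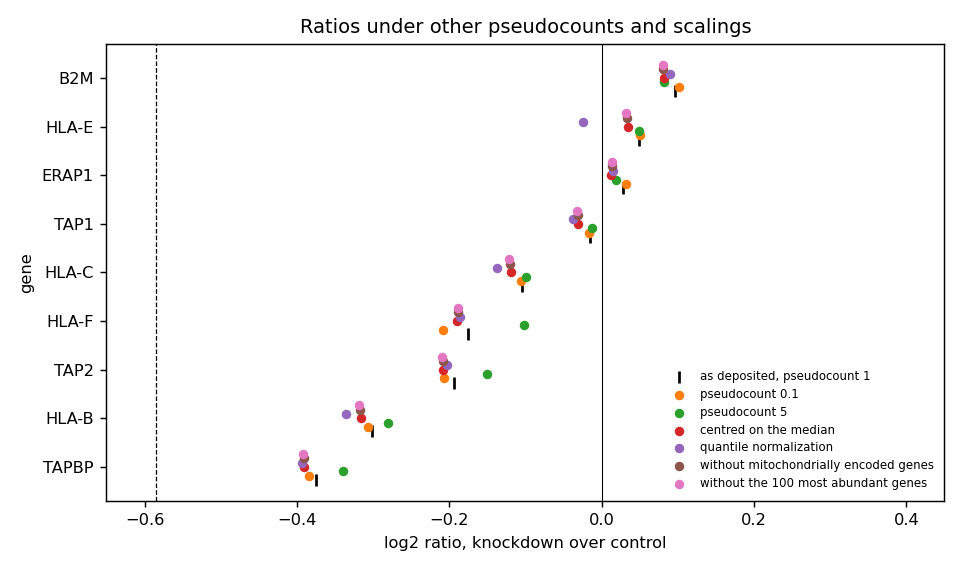
Log2 ratio of each of the 9 genes under 7 settings, with a black tick for the deposited scale with a pseudocount of 1 and coloured points for 2 other pseudocounts and 4 other scalings, and a dashed line at 1.5-fold lower. TAPBP stayed between -0.39 and -0.34 and HLA-B between -0.34 and -0.28, and HLA-E is the 1 gene with points on both sides of 0.

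Sequence shared between genes limits some of these values. In the GENCODE 29 coding transcripts of HLA-B, 27.3% of words of 50 bases also occurred in another annotated gene, mostly in an unprocessed pseudogene on the opposite strand that shares 542 of its exon bases. For HLA-F it was 22.8%, with HLA-F-AS1 and pseudogenes on the opposite strand as partners. For TAP2 it was 32.7%, all of it shared with AL669918.1, a coding model on the same strand that is not used here, and for TAP1 15.0%, mostly with PSMB8-AS1 on the opposite strand. HLA-C had 6.17%, HLA-E 5.76%, TAPBP 5.82% and ERAP1 4.46%, and ERAP1 also overlaps 299 exon bases of CAST on the opposite strand. The longest coding transcripts of HLA-B and HLA-C were identical at 92.7% of aligned bases, and those of HLA-B and HLA-E at 81.6%. HLA alleles differ between people and lines, so reads of the 468 line that match the reference poorly may have been lost or assigned to another HLA gene, and the levels of the HLA genes and their order are uncertain for that reason. Strandedness is not given in the sources used here, so reads of HLA-B, HLA-F, TAP1 and ERAP1 and of their opposite-strand partners cannot be told apart.

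Partners of these genes were taken from 10 lists of the pathway, some of which share genes. Of 66 different genes kept, 1 was at least 1.5-fold lower and 0 at least 1.5-fold higher, with a median log2 ratio of 0.03, beside 2.46% and 2.98% of all genes. The gene that was lower was MICB, a stress-induced ligand of the natural killer receptor NKG2D that resembles a class I heavy chain, at 4.09 FPKM in the knockdown and 7.25 in the control library. Among the 9 genes kept of that list of class I-like genes and ligands, 6 were below 0, and ULBP1, another NKG2D ligand, was at 3.26 and 2.12 FPKM. With the lower pseudocount of 0.1 the lists held 4 lower genes (MICB, JAK2, IFIT3 and MARCHF9) and 2 higher (IFI6 and ULBP1), where 405 of all 10925 genes (3.71%) were lower and 547 higher. At the higher pseudocount, 5, none of the list genes was lower.

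The chaperones of the loading complex were nearly level. The 6 genes kept had a median of 0.01, with 0 past 1.5-fold in either direction, and the largest ratios were TAPBPL, a tapasin relative that edits peptides, at 2.30 and 2.08 FPKM, and PDIA3, the disulfide isomerase bound to tapasin, at 59.1 and 62.1. The median lay between -0.0072 and -0.0053 under 3 of the 4 other scalings. Calreticulin, encoded by CALR, was 10.1 times TAPBP in the knockdown and 7.45 times in the control library.

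The immunoproteasome cuts proteins into peptides that suit class I molecules. PSMB8, a catalytic subunit whose gene lies beside TAP1 and TAP2 in the class II region, was at 88.2 and 69.8 FPKM and had a log2 ratio of 0.33. PSMB9, another such subunit that is known to share a promoter region with TAP1, was at 2.50 and 3.49 FPKM and had a log2 ratio of -0.36. PSMB8 was 35.3 times PSMB9 in the knockdown and 20.0 times in the control library. PSMB9 was 0.150 and 0.208 times TAP1. The 5 genes of that list had a median of -0.048 and none was past 1.5-fold. The 3 constitutive catalytic subunits had a median of 0.15, with PSMB7 at 47.4 and 41.9 FPKM and PSMB6 at 32.3 and 29.1. The 6 cytosolic and endosomal peptidases had a median of 0.04, with LAP3 at 14.2 and 12.7 FPKM and LNPEP at 2.89 and 3.19.

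NLRC5, the transactivator of class I promoters, was low in both libraries, at 1.062 and 1.253 FPKM. The 13 regulators of class I promoters had a median of 0.06, with 5 below 0 and none past 1.5-fold. The largest ratios were NFKB1, which encodes the p50 subunit of NF-kappaB, at 6.03 and 4.51 FPKM, and EZH2, the histone methyltransferase known to silence class I genes in some tumours, at 33.7 and 41.7. IRF1, an interferon-induced activator of class I genes, was at 5.58 and 4.92 FPKM.

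Of the 10 genes for interferon receptors and their signalling, 7 were below 0 and the median was -0.11. IFNGR1, the ligand-binding chain of the interferon-gamma receptor, was at 63.6 and 91.3 FPKM, 1.43-fold lower, and the kinase gene JAK2 at 1.86 and 2.96, 1.38-fold lower. The 11 interferon-induced genes kept had a median of 0.11 with 9 above 0, which is the opposite sign to the receptors and to the members. IFIT3 was at 1.61 and 2.60 FPKM and IFI6 at 2.57 and 1.63. The 5 genes kept that act on surface turnover of class I had a median of 0.07, with the ubiquitin ligase gene MARCHF9 at 1.18 and 2.07 FPKM and WWP2 at 5.46 and 4.80.

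**Figure D5:**
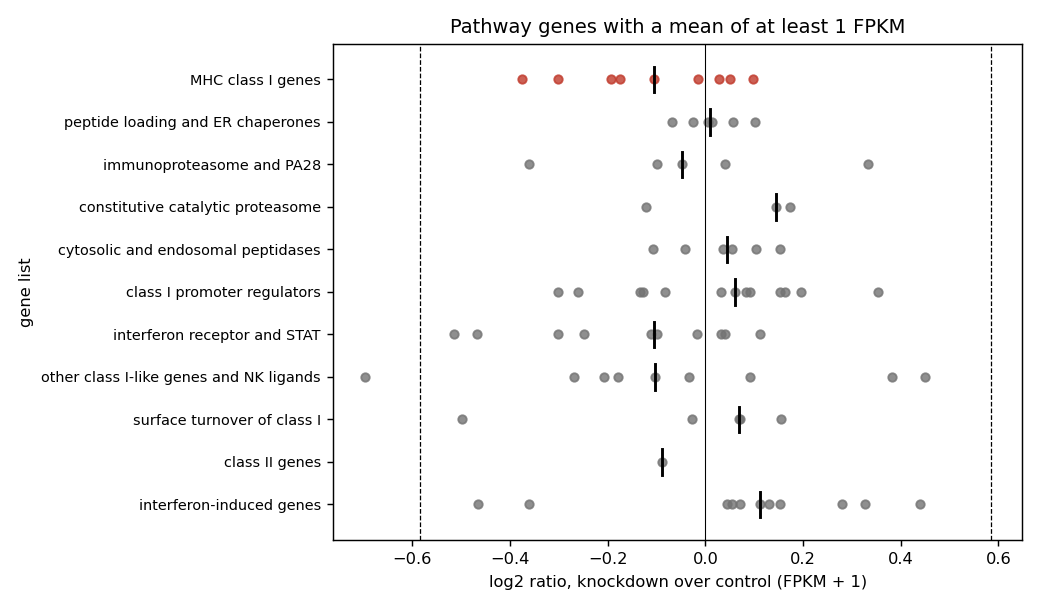
Log2 ratio of knockdown over control on the FPKM + 1 scale for the 9 MHC class I genes (red) and for the genes of 10 pathway lists with a mean of at least 1 FPKM (grey), 1 point per gene and list, with a vertical bar at the median and dashed lines at 1.5-fold. MICB, in the list of other class I-like genes, is the single point outside the dashed lines.

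Class II genes, many of which mark professional antigen-presenting cells, were listed at 0 or low. HLA-DRA and HLA-DRB1 were listed at 0 in both libraries, CD74 was at 0.122 and 0.142 FPKM, and only HLA-DMA, at 1.04 and 1.17, reached a mean of 1 FPKM among the 5 of 10 in the tables. The 7 markers of the breast epithelial line were all above 1 FPKM and summed to 2051 and 2024 FPKM. Of 7 white blood cell markers, 4 were in the tables and summed to 14.8 and 14.1 FPKM, most of it CD14 at 10.3 and 9.50. Of 3 fibroblast markers, 2 were in the tables and summed to 0.878 and 0.874 FPKM, and the 2 endothelial markers are not analysed here. The epithelial sum was mostly KRT19, at 1106 and 1057 FPKM, and single markers had ratios of both signs. CDH1, the epithelial cadherin, was at 12.4 and 17.1 FPKM (log2 ratio -0.43), EGFR at 258 and 336 (-0.38) and KRT18 at 201 and 166 (0.27), so the first pair was as low in ratio as TAPBP. Their part in the members' ratios was not tested.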

How the data were processed

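RNA of 468 cells was sequenced in 2 libraries, 1 per group. The authors deposited FPKM per gene, per the file headers. Cutadapt, HISAT2 2.0.5, StringTie and the build hg19 are named in the submitters' processing notes; the sources used here give no other versions, annotation or strandedness. Where gene models overlap, StringTie estimates how reads are split, which can move the values of HLA genes. Symbols were matched for 12903 of 13017 identifiers. GENCODE 29 genes, matched by identifier, gave transcript sequences, lengths and exon overlaps; promoters are RefSeq windows, and HLA-E has no entry. One fragment was valued at the median of FPKM times exon length between 60 and 130 in genes with 1 transcript (18 and 12 genes), a window set after the values had been seen. This window bounds the estimated number of fragments in each library.

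Members and lists were chosen with earlier results of these data known. Named are all members, THAP7, PSMB8, PSMB9, NLRC5, IRF1 and 1 further regulator that is not reported here, and from each list the genes at least 1.5-fold apart or else the 2 largest ratios. CALR, ULBP1, HLA-DRA, HLA-DRB1, CD74 and single cell markers were named after their values had been seen. Alternatives changed pseudocount, filter, scaling and fold. The ratio script was checked on simulated data with known changes. Python 3.11.15, numpy 2.4.6, pandas 2.3.3, biopython 1.88 and matplotlib 3.10.9 were used.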

Additional observations from a re-analysis of the deposited data

How the results depend on the processing

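All 54 values of the 9 members' ratios under 2 other pseudocounts and 4 other scalings moved by less than the spread of genes of their level, and 1 changed sign, that of HLA-E. The median of the members, -0.10, ran from -0.14 under quantile normalization to -0.015 without the HLA genes. No member was 1.5-fold lower under any pseudocount, scaling or filter, none at a fold of 2 and 1 (TAPBP) at a log2 ratio of 0.32 in size. A mean of at least 5 FPKM leaves out HLA-F. In the pathway lists the 1 lower gene became 4 at the lower pseudocount, 0.1, and 0 at the higher, 5, and the 0 higher genes became 2 at 0.1. All 79 list medians moved by less than 0.21, the spread over all genes, and 4 did not keep their sign. Of these 4, 1 went to exactly 0, that of the class II genes without the filter on low values. Over all genes, 269 were lower and 326 higher, 405 and 547 at the lower pseudocount and 96 and 88 at the higher. By construction a larger pseudocount shrinks ratios of low genes. The order of the 9 genes was that of the mean in both libraries. No paired analysis was possible because each group has 1 library. The counting error was largest for HLA-F and ERAP1, but it depends on the transcript length taken for each gene.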
